A study of Mus musculus with 12 samples.

Results

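Small nuclear and nucleolar RNAs were examined in mouse kidney as 85 probe sets of 34472 on the array, chosen by symbol alone: the annotated gene symbol had to start with Snora, Snord, Scarna or Rnu and a number, and host genes were left out. The 85 probe sets stood for 82 gene symbols and fell into 47 Snord, 28 Snora, 6 Scarna and 4 Rnu probe sets. A further 60 probe sets carried a matching symbol among several symbols and were kept out, since their signal could not be given to 1 gene. Kidney RNA of 12 female mice aged 8 to 12 weeks was measured on 12 arrays (GeneChip Mouse Gene 2.0 ST), 3 for each of 4 groups: ischemic HDAC2-/-, ischemic WT, HDAC2-/- and WT. The ischemic kidneys were taken 4 h after 28 min of clamping of the left renal pedicle with removal of the right kidney, while no sham operation is described for the unischemic mice, so ischemia and surgery cannot be told apart. HDAC2-/- mice are labelled HDAC2fl/fl-ERTcre and WT mice Wild type ERT2cre, so both genotypes carried the inducible Cre, and both genotypes received 100 mg/kg tamoxifen daily for 5 days with 7 days of recovery. The study's methods place the inducible Cre under the ubiquitin C promoter, which is active in most cell types, and the labels give the tissue as renal cortex whereas the methods give whole kidney.

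Small nucleolar RNAs are short noncoding RNAs that guide chemical changes on other RNAs, mostly ribosomal RNA, or help to cut the ribosomal RNA precursor. Box C/D RNAs (Snord) guide ribose methylation and assemble with Fbl, Nop56, Nop58 and Snu13, and box H/ACA RNAs (Snora) guide pseudouridylation and assemble with Dkc1, Nop10, Nhp2 and Gar1. Scarna RNAs reside in Cajal bodies and guide changes on spliceosomal RNAs, and the Rnu symbols cover U RNAs, which act in splicing except U3, a nucleolar RNA needed for ribosomal RNA cleavage. In mammals most small nucleolar RNAs are not transcribed on their own but are cut from introns of host genes, many of which encode ribosomal proteins, translation factors or nucleolar proteins. In kidney, the proximal tubule is the segment known to be hurt most by ischemia.

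Sequence is shown for the member that the RefSeq microRNA table also covers, because there the small nucleolar RNA and a microRNA share the same bases. Snora19, an H/ACA RNA in the gene Eif3a, lies at chr19:60774330-60774385 (GRCm38.p6) inside the hairpin of Mir3084-2, whose minus strand is given here. The 56 bases follow in RNA letters with the ACA that stands 3 bases from the end in capitals, the position at which H/ACA RNAs carry their ACA box, and the 2 mature microRNAs of the hairpin follow with their seeds (bases 2 to 8) in capitals.
Snora19: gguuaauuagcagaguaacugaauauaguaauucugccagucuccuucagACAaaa
mmu-miR-3084-3p: uUCUGCCAgucuccuucagac
mmu-miR-3084-5p: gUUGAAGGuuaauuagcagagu
The array had 2 probe sets for Snora19 with identical values on all 12 arrays, so they hold 1 measurement. Both were kept in all counts of probe sets and of pairs with host genes, where these values enter 2 times. Probe signal there cannot be given to Snora19 rather than the microRNA. Snora19 was 4.98, 4.62 and 5.21 in ischemic HDAC2-/- kidneys, 4.96, 4.62 and 4.73 in ischemic WT, 4.92, 4.65 and 5.28 in HDAC2-/- and 4.41, 4.88 and 5.06 in WT (log2 level, as are all levels below). All 4 groups overlapped.

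The class levels differed far more between arrays of 1 group than between groups. The mean over the 85 probe sets was 8.57, 9.23 and 8.81 in ischemic HDAC2-/- kidneys, 8.76, 8.02 and 8.92 in ischemic WT, 8.61, 8.47 and 9.22 in HDAC2-/- and 8.30, 8.68 and 9.05 in WT. The lowest array was ischemic WT 2 and the highest ischemic HDAC2-/- 2, a span of 1.21 log2 units or 2.31-fold, whereas the mean over all 34472 probe sets spanned 0.06. Every group held an array at 8.57 or below and one at 8.92 or above, and all groups overlapped. The group means were 8.87 ± 0.33 in ischemic HDAC2-/-, 8.57 ± 0.48 in ischemic WT, 8.77 ± 0.40 in HDAC2-/- and 8.68 ± 0.38 in WT (SD, n = 3 each).

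The same arrays were high or low in each class. Box C/D probe sets averaged 8.33 ± 0.28 in ischemic HDAC2-/-, 8.09 ± 0.39 in ischemic WT, 8.22 ± 0.32 in HDAC2-/- and 8.13 ± 0.30 in WT, and box H/ACA probe sets 9.52 ± 0.38, 9.18 ± 0.57, 9.44 ± 0.50 and 9.33 ± 0.48 in the same order. Scarna probe sets averaged 10.05 ± 0.42 in ischemic HDAC2-/-, 9.66 ± 0.64 in ischemic WT, 10.08 ± 0.38 in HDAC2-/- and 10.03 ± 0.40 in WT. The 4 Rnu probe sets spread most, at 8.81 ± 0.60 in ischemic HDAC2-/-, 8.29 ± 0.79 in ischemic WT, 8.53 ± 0.71 in HDAC2-/- and 8.54 ± 0.61 in WT (SD, n = 3 each). From the lowest to the highest array the span was 1.99-fold for box C/D, 2.81-fold for box H/ACA, 3.02-fold for Scarna and 3.89-fold for Rnu. After the group means were removed, the class means correlated with each other across the 12 arrays at r between 0.922 and 0.980, a description over arrays that share their normalization.

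**Figure D1:**
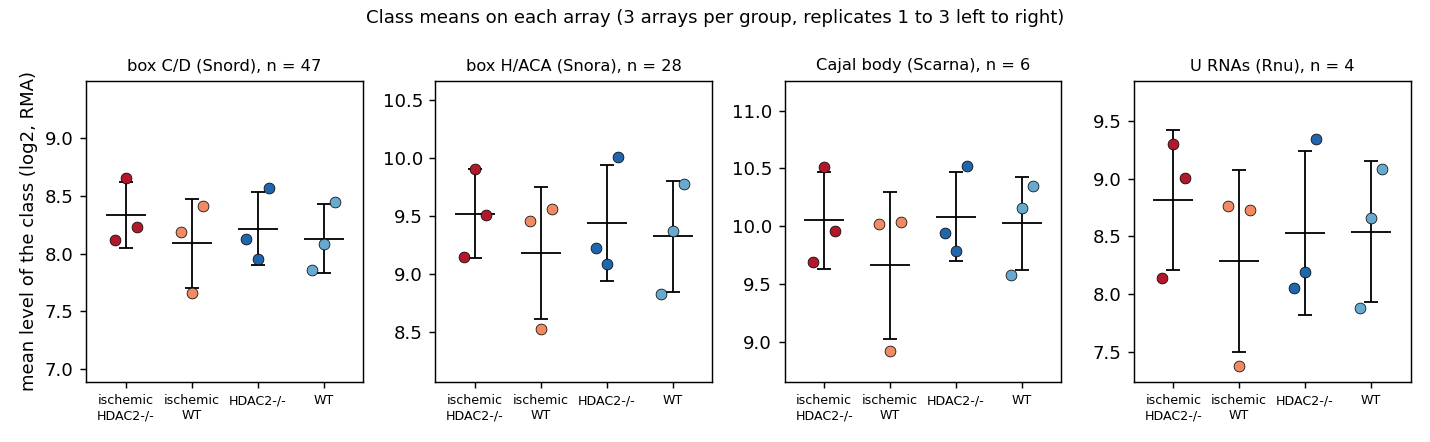
Mean log2 level of each class of small RNA (vertical axis) on each of the 12 arrays, by group (horizontal axis); points are arrays and bars the group mean ± SD (n = 3). The 4 groups overlap in every class, ischemic WT 2 is the lowest array in each, and the Rnu class spans 3.89-fold from lowest to highest array.

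None of the 85 small RNAs differed between groups at an adjusted p under 0.05 (limma with empirical Bayes variance, Benjamini-Hochberg over all probe sets). After ischemia in WT kidneys 0 of 85 passed, against 13.7% of all probe sets, and 6 of 85 had an unadjusted p under 0.05, against 25.1% of all. After ischemia in HDAC2-/- kidneys 0 of 85 passed, against 4.91% of all probe sets, and 2 had an unadjusted p under 0.05, against 16.9%. Between ischemic HDAC2-/- and ischemic WT kidneys 0 passed, against 0.00% of all, and 0 had an unadjusted p under 0.05, against 6.59%. Between unischemic HDAC2-/- and WT kidneys 0 passed, against 0.00%, and 1, Snord73a, had an unadjusted p under 0.05, against 2.38%. The test of whether the response to ischemia differed between the genotypes passed for 0 of 85, against 0.00%, with 0 at an unadjusted p under 0.05, against 4.19%. The median standard error of a difference was 0.304 log2 units for these probe sets and 0.17 over all, so a difference had to be larger here to pass. With arrays weighted by quality, 4 of 85 passed after ischemia in HDAC2-/- kidneys (Snora78, Snord16a, Snord43 and Snord53), against 18.4% of all probe sets in that fit, and 1 in WT (Snord43), against 17.4%.

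The size of the small mean differences depended on single arrays, and so did their direction except in ischemic HDAC2-/- against ischemic WT kidneys. In ischemic HDAC2-/- against ischemic WT kidneys 78 of 85 differences were above 0 with a median of 0.27, while over all probe sets 52.5% were above 0 with a median of 0.01. The mean difference over the 85 was 0.30, and it was 0.03 without ischemic WT 2, the array on which 59 of the 85 had their lowest value. After ischemia in WT kidneys 28 of 85 differences were above 0 (46.8% of all probe sets) with a median of -0.13, and the mean difference of -0.11 became 0.16 without ischemic WT 2. After ischemia in HDAC2-/- kidneys 60 of 85 were above 0 (48.3% of all) with a median of 0.06, and the mean of 0.10 became -0.08 without ischemic HDAC2-/- 2. In HDAC2-/- against WT kidneys 66 of 85 were above 0 (50.3% of all) with a median of 0.10, and the mean of 0.09 became -0.14 without HDAC2-/- 3.

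**Figure D2:**
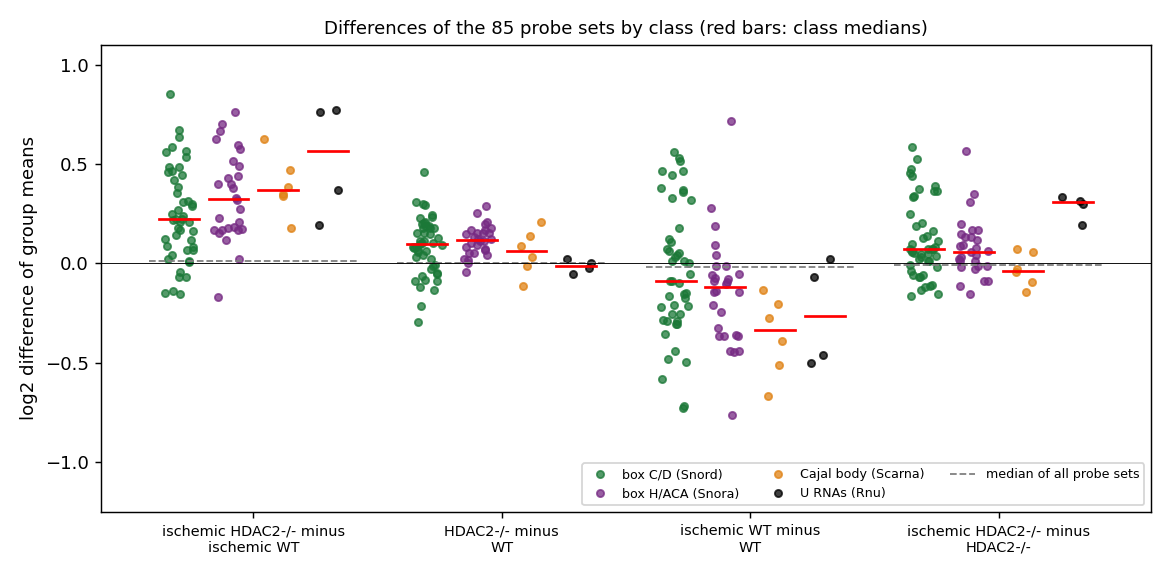
Log2 difference of group means (vertical axis) for each of the 85 probe sets in 4 comparisons (horizontal axis), coloured by class, with class medians as red bars and the median of all 34472 probe sets as a dashed line. Medians over the 85 are 0.27, 0.10, -0.13 and 0.06 from left to right, and no point passed an adjusted p under 0.05.

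Among the U RNAs, U11 and U12 belong to the minor spliceosome, which removes a rare class of introns. Rnu12 was 10.92, 12.13 and 12.12 in ischemic HDAC2-/- kidneys, 11.62, 9.59 and 11.64 in ischemic WT, 10.63, 11.16 and 12.38 in HDAC2-/- and 10.52, 11.64 and 12.08 in WT. Rnu11 was 9.96, 10.95 and 10.55 in ischemic HDAC2-/-, 10.67, 9.58 and 10.63 in ischemic WT, 9.92, 9.89 and 11.07 in HDAC2-/- and 9.60, 10.34 and 10.87 in WT. Both overlapped between all groups, with differences in ischemic HDAC2-/- against ischemic WT of 0.77 (SE 0.57, adjusted p = 0.826 from limma) for Rnu12 and 0.19 (SE 0.39, adjusted p = 0.944 from limma) for Rnu11. Rnu3a, the U3 RNA of ribosomal RNA cleavage, was 9.23, 10.59 and 10.33 in ischemic HDAC2-/-, 9.94, 7.84 and 10.09 in ischemic WT, 9.14, 9.22 and 10.85 in HDAC2-/- and 8.79, 10.05 and 10.53 in WT. Its 2 extreme arrays, ischemic WT 2 and HDAC2-/- 3, were the same as for Rnu12. Rnu5g, a copy of the U5 RNA of the major spliceosome, lay near the bottom of the scale, between 2.45 and 3.53 on all arrays.

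Each Scarna RNA was lower on average in ischemic WT than in WT kidneys, with differences between -0.67 and -0.13 for the 6 probe sets, and none passed. Over all probe sets 46.8% were above 0 in this comparison. Each of the 6 had its lowest value on ischemic WT 2. The mean over the 6 was 10.02, 8.92 and 10.04 in ischemic WT and 9.58, 10.16 and 10.34 in WT. Without ischemic WT 2 the ischemic WT arrays thus lay within the WT range. Scarna6, in the autophagy gene Atg16l1, was 11.05, 12.25 and 11.77 in ischemic HDAC2-/-, 11.50, 10.08 and 11.61 in ischemic WT, 11.25, 11.32 and 12.29 in HDAC2-/- and 11.11, 11.93 and 12.16 in WT, and its difference after ischemia in WT was -0.67 (SE 0.42, adjusted p = 0.376 from limma). Scarna8, in Haus6, differed by -0.51 (SE 0.31, adjusted p = 0.355 from limma) in the same comparison. Scarna2, a guide for the U2 spliceosomal RNA with its own transcription unit, was 11.34 ± 0.40 in ischemic HDAC2-/-, 10.96 ± 0.69 in ischemic WT, 11.38 ± 0.37 in HDAC2-/- and 11.35 ± 0.25 in WT. Scarna10 was 8.90 ± 0.19, 8.55 ± 0.87, 8.84 ± 0.35 and 8.75 ± 0.25 in that order, and the 2 Scarna17 probe sets averaged 10.46 and 11.15 over all arrays and moved together within groups (r = 0.975, 12 arrays).

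A few box C/D RNAs were higher on every ischemic array of a genotype than on its unischemic arrays. Among the 85 this was rarer than among all probe sets, at 4.71% against 13.0% in WT and 3.53% against 9.91% in HDAC2-/-. Snord16a and Snord43 rose and fell with the class mean on the unischemic arrays but stayed nearly level on the ischemic ones. Snord16a, from an intron of the ribosomal protein gene Rpl4, was 8.07, 8.13 and 8.07 in ischemic HDAC2-/- kidneys, 8.13, 8.20 and 8.15 in ischemic WT, 7.38, 7.29 and 8.03 in HDAC2-/- and 7.23, 7.59 and 8.07 in WT. All 6 ischemic arrays lay between 8.07 and 8.20, and in each genotype they were above the highest unischemic array. The differences were 0.52 after ischemia in HDAC2-/- (SE 0.21, adjusted p = 0.211 from limma) and 0.53 after ischemia in WT (SE 0.21, adjusted p = 0.125 from limma), or 0.33 without WT 1. Snord43, from an intron of Rpl3, was 6.18, 6.23 and 6.24 in ischemic HDAC2-/-, 6.28, 6.17 and 6.08 in ischemic WT, 5.74, 5.67 and 6.15 in HDAC2-/- and 5.37, 5.53 and 6.09 in WT. Its difference in WT, 0.51 (SE 0.18), had the smallest adjusted p of any of the 85 there, 0.0814 from limma, with overlapping arrays. In HDAC2-/- it was 0.36 (SE 0.18, adjusted p = 0.342 from limma), with no overlap.

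Snord58b, from the gene of ribosomal protein Rpl17, was 6.25, 6.07 and 5.77 in ischemic HDAC2-/-, against 5.49, 5.52 and 5.33 in HDAC2-/-, a difference of 0.58 (SE 0.19, adjusted p = 0.101 from limma). Snord73a, from Rps3a1, was 5.50, 5.64 and 6.04 in HDAC2-/-, against 5.23, 5.22 and 5.35 in WT, a difference of 0.46 (SE 0.17, adjusted p = 1.0 from limma) that was 0.30 without HDAC2-/- 3, and it was 5.53, 5.73 and 5.87 in ischemic WT, 0.44 above WT (adjusted p = 0.112 from limma). Snord91a was 0.56 higher in ischemic WT than WT (adjusted p = 0.125 from limma), or 0.37 without ischemic WT 1, at levels between 2.53 and 3.68, near the bottom of the scale. In all, 4 of 85 had no overlap and were higher in ischemic WT than WT (13.0% of all probe sets) and 3 in ischemic HDAC2-/- than HDAC2-/- (9.91% of all). None had no overlap and was lower in either (15.3% and 10.2% of all). Between HDAC2-/- and WT kidneys 3 of 85 were higher without overlap (3.79% of all) and 0 lower (3.83%), while after ischemia the 2 genotypes were free of overlap for 0 of 85, with HDAC2-/- higher for 5.99% of all probe sets and lower for 4.08%.

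Snora34 and Snord70 were lower in ischemic WT kidneys at an unadjusted p under 0.05 and failed the adjustment. Snora34 was 10.61, 11.57 and 10.86 in ischemic HDAC2-/-, 10.62, 9.58 and 10.96 in ischemic WT, 11.03, 10.81 and 11.67 in HDAC2-/- and 10.89, 11.07 and 11.49 in WT. Its difference after ischemia was -0.16 in HDAC2-/- and -0.76 in WT (SE 0.34, adjusted p = 0.172 from limma), and the WT value was -0.36 without ischemic WT 2 and -1.05 without ischemic WT 3. Snord70, from the gene of the box C/D core protein Nop58, was 5.50, 6.45 and 5.85 in ischemic HDAC2-/-, 4.89, 4.82 and 6.08 in ischemic WT, 6.05, 5.55 and 6.61 in HDAC2-/- and 5.89, 5.85 and 6.24 in WT, with a difference in WT of -0.73 (SE 0.34, adjusted p = 0.194 from limma) that was -1.14 without ischemic WT 3. In the genotype comparison after ischemia, the smallest unadjusted p values in the 2 large classes belonged to Snord61 (0.64, adjusted p = 0.758 from limma) and to Snora34 (0.63, adjusted p = 0.781 from limma).

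**Figure D3:**
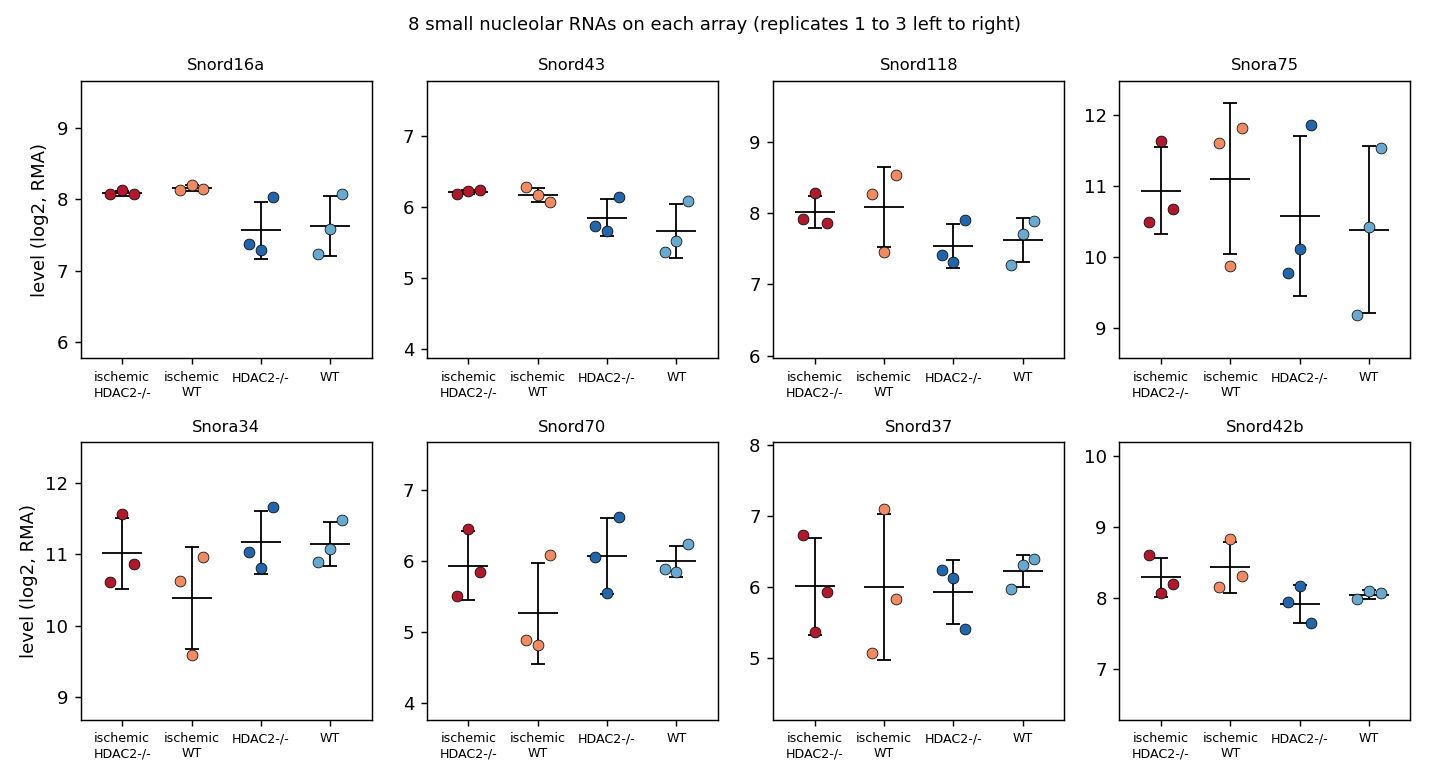
Log2 level (vertical axis) of 8 small nucleolar RNAs on each array, by group (horizontal axis); points are arrays and bars the group mean ± SD (n = 3), with panels of equal height. Snord16a and Snord43 lie close together on the 6 ischemic arrays, Snora75 spreads within each group, and Snord37 and Snord42b are highest on ischemic WT 2, where Snord118, Snora75, Snora34 and Snord70 are lowest of the ischemic arrays.

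RNAs with set roles in ribosomal RNA cleavage, and some guide RNAs, did not pass either, and their means moved in different directions. After ischemia in WT kidneys Snord118 was higher on average and the others named here were lower. Snord118, the U8 RNA needed for the large subunit, was 7.92, 8.28 and 7.86 in ischemic HDAC2-/-, 8.27, 7.46 and 8.54 in ischemic WT, 7.41, 7.32 and 7.90 in HDAC2-/- and 7.28, 7.71 and 7.89 in WT. Its means were 0.48 and 0.46 higher after ischemia in HDAC2-/- and in WT kidneys, and neither passed. Snora73a and Snora73b, copies of the U17 RNA that acts on the small subunit precursor, averaged 10.87 ± 0.49 and 11.21 ± 0.48 in ischemic HDAC2-/- and 10.21 ± 0.71 and 10.51 ± 0.76 in ischemic WT, with overlapping arrays. Snord13, a guide for acetylation of small subunit ribosomal RNA, was 8.17 ± 0.44 in ischemic HDAC2-/-, 7.70 ± 0.73 in ischemic WT, 8.21 ± 0.43 in HDAC2-/- and 8.42 ± 0.58 in WT. Of the RNAs in introns of Rpl13a, which have been tied to lipid-induced stress in cultured rodent cells, Snord35a was among the 85, at 10.94 ± 0.57, 10.63 ± 0.57, 10.96 ± 0.43 and 10.92 ± 0.39 in the 4 groups in that order. Snord47 was 9.69 ± 0.56, 9.23 ± 0.83, 9.63 ± 0.57 and 9.48 ± 0.39 (SD, n = 3 each).

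The array-to-array pattern was shared by most of the 85 but not to the same degree. Each probe set's deviations from its group means were set against those of the mean over the other 84. The median r was 0.944, 55 of 85 had r above 0.9 and 3 had r below 0. Among all other probe sets, 1.97% had r above 0.9. The median within-group SD was 0.459 for the 85 and 0.21 over all probe sets, and for brighter probe sets with a mean of at least 8 it was 0.496 for the 52 small RNAs and 0.225 for 6986 others. The 30 small RNAs with a mean of at least 10 all had r above 0.8, but only 1 of the 15 with a mean under 6 did. The first component of the within-group deviations held 85% of their variance.

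Snora75, which lies in the nucleolin gene Ncl, had the largest within-group SD, 1.02. It was 10.49, 11.63 and 10.67 in ischemic HDAC2-/-, 11.60, 9.88 and 11.82 in ischemic WT, 9.77, 10.11 and 11.86 in HDAC2-/- and 9.19, 10.42 and 11.54 in WT, and changed by 2.48 log2 units for each unit of the other probe sets. Rnu3a changed by 2.39, Rnu12 by 2.12 and Snora44 by 2.06 per unit. Snora44, Snora41, Snord72 and Snora7a followed Snora75 among the large classes with within-group SDs of 0.86, 0.73, 0.72 and 0.71. Snord23, with a mean level of 9.44, changed by 0.32 per unit and lay between 9.0 and 9.67 on all arrays.

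Snord37 and Snord42b ran against the rest, with r of -0.70 and -0.78. Snord37, in the elongation factor gene Eef2, was 6.73, 5.37 and 5.93 in ischemic HDAC2-/-, 5.07, 7.10 and 5.84 in ischemic WT, 6.24, 6.13 and 5.41 in HDAC2-/- and 5.97, 6.31 and 6.39 in WT. It was highest on ischemic WT 2, where 59 others were lowest. Snord42b, in Rpl23a, was 8.60, 8.07 and 8.19 in ischemic HDAC2-/-, 8.15, 8.83 and 8.30 in ischemic WT, 7.94, 8.16 and 7.64 in HDAC2-/- and 7.98, 8.09 and 8.07 in WT. Its difference after ischemia was 0.37 in HDAC2-/- and 0.38 in WT, the WT arrays did not overlap, and neither difference passed.

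**Figure D4:**
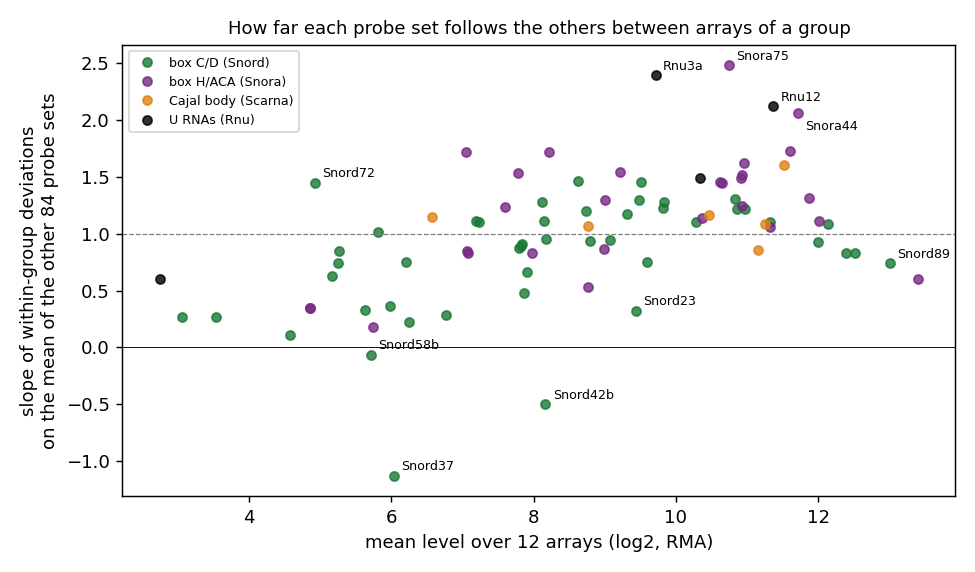
Slope of each probe set's within-group deviations on those of the mean of the other 84 (vertical axis, log2 per log2 unit; dashed line at 1) against its mean log2 level over 12 arrays (horizontal axis), coloured by class. Snora75 (2.48) and Rnu3a (2.39) have the steepest slopes, and Snord37 (-1.13), Snord42b (-0.50) and Snord58b (-0.07) lie below 0.

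Other short noncoding RNAs that are transcribed from their own promoters followed the 85 to different degrees. The list of the RNase P, RNase P-like, Y, vault, telomerase and 7SK RNAs had 8 measured genes, none called in any comparison, and its mean correlated with that of the 85 within groups at r = 0.930 over 12 arrays. Single genes ranged from r = 0.560 for Rn7sk, 0.643 for Rprl1 and 0.812 for Terc to 0.943 for Vaultrc5. Rn7sk lay between 14.18 and 14.34 on all arrays, near the top of the scale, and Rprl1 was 7.04, 7.07 and 7.06 in HDAC2-/- kidneys, where the 85 were not flat. Rpph1, the RNA of RNase P, was 13.56, 13.82 and 13.63 in ischemic HDAC2-/-, 13.67, 13.02 and 13.81 in ischemic WT, 13.67, 13.40 and 13.84 in HDAC2-/- and 13.27, 13.47 and 13.74 in WT. The 498 probe sets of microRNA genes had a median r of 0.237 with the 85 at a median level of 4.30, and the 15 small RNAs with a mean under 6 had a median r of 0.615, so level and class cannot be told apart there. The 60 probe sets with several symbols did, with a median r of 0.931. Marker lists of kidney cell types moved with the 85 in both directions: r was 0.694 for endothelium, 0.619 for neutrophil, 0.539 for distal and collecting duct, 0.531 for leukocyte and 0.381 for perirenal fat markers, and -0.791 for thick limb and -0.696 for podocyte markers. The mean of 5 proximal tubule markers went the other way (r = -0.905) over a narrow range, 12.27 to 12.41 in ischemic HDAC2-/-, 12.25 to 12.53 in ischemic WT, 12.24 to 12.63 in HDAC2-/- and 12.26 to 12.46 in WT. The part of cell makeup in the array-to-array pattern was not tested, and fewer cells of a type and less RNA per cell cannot be told apart in whole tissue.

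The non-member genes most like the 85 within groups were H4f16 (r = 0.991), Smim27 (0.991), Gm10012 (0.990), Ptcd3 (0.985), Epb41l4aos (0.980), Ndufa4 (0.980), Dancr (0.979), Smim26 (0.979), Tm2d1 (0.979) and Gng5 (0.978). Those most opposite were Hacd3 (-0.988), Krt8 (-0.985), Igf1r (-0.983), Nsfl1c (-0.982) and Klhl18 (-0.982). Over all non-members 5.94% had r above 0.8 and 6.53% had r below -0.8.

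Some of the genes whose span contains a small RNA changed after ischemia, and most did not pass. By their coordinates in RefSeq (GRCm38.p6, a table without strand), 72 of the 85 lay inside exactly 1 other gene, 6 inside 2 or more and 7 inside none. For 60 of them that gene had at least 1 probe set of its own, giving 44 host genes. Some hosts had several, such as Nop56 with 3 and Rps12 with 8. The probe set with the highest mean level then stood for the gene, also in the gene lists below, and the others are not shown. After ischemia in WT kidneys 16 of the 44 rose and 2 fell, against 6.55% higher and 7.17% lower of all probe sets, and after ischemia in HDAC2-/- kidneys 11 rose and none fell, against 2.94% and 1.97%. The count of hosts that rose was 11 to 16 in WT and 8 to 15 in HDAC2-/- with any 1 array left out. The median difference in WT was -0.09 over the 60 small RNA probe sets and 0.45 over their 44 hosts. In WT 54 of 60 small RNAs were below their host. In HDAC2-/- the medians were 0.06 and 0.29, with 47 of 60 below. The following values are for hosts chosen because they rose, which raises the host medians and the number of small RNAs below them. The 21 small RNA probe sets in the 16 hosts that rose in WT had a median difference of -0.01, the hosts a median of 1.02, and each of the 21 was below its host. In HDAC2-/- the 16 probe sets in the 11 hosts had a median of 0.12 and the hosts 1.01, and again each was below its host. None of these small RNAs was called, and the difference between a small RNA and its host was not itself tested.

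Nop58, a core protein of every box C/D particle, was 7.73, 7.51 and 7.74 in ischemic HDAC2-/- kidneys, 8.10, 7.93 and 7.74 in ischemic WT, 6.36, 6.14 and 6.87 in HDAC2-/- and 6.35, 5.82 and 6.17 in WT. All 6 ischemic arrays were above all 6 unischemic ones, with rises of 1.20 in HDAC2-/- (SE 0.19, adjusted p = 0.00233 from limma) and 1.81 in WT (SE 0.19, adjusted p = 7.25e-05 from limma). Its 2 intronic RNAs gave -0.14 and 0.45 in HDAC2-/- and -0.73 and 0.11 in WT for Snord70 and Snord11. Gnl3, the nucleolar protein nucleostemin, was 7.66, 7.58 and 7.78 in ischemic HDAC2-/-, 7.77, 8.22 and 7.73 in ischemic WT, 6.01, 5.96 and 6.38 in HDAC2-/- and 6.0, 5.87 and 6.08 in WT. It rose by 1.56 in HDAC2-/- (adjusted p = 8.54e-05 from limma) and 1.92 in WT (adjusted p = 9.79e-06 from limma), and its intronic Snord69 gave -0.06 and -0.09.

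Nop56, the partner of Nop58, rose by 1.0 in HDAC2-/- and 1.29 in WT, and its Snord110 gave 0.14 and -0.36. Nucleolin (Ncl) rose by 0.81 and 1.01, and its Snora75 gave 0.35 and 0.72 and its Snord82 -0.06 and -0.31. Wdr43, a small subunit processome protein, rose by 1.32 and 1.61, with Snord53 at 0.44 and 0.46 and Snord92 at 0.33 and 0.36. Ipo7, an importin that carries ribosomal proteins into the nucleus, rose by 1.57 and 1.80, with Snora23 at 0.31 and 0.28. Snhg1, a host gene with no known protein, was 8.14, 8.58 and 8.62 in ischemic HDAC2-/-, against 7.23, 7.23 and 7.67 in HDAC2-/-, and 8.42, 8.06 and 8.71 in ischemic WT, against 7.43, 7.52 and 7.95 in WT. It rose by 1.07 and 0.76, while its Snord22 gave 0.05 and -0.44. The 2 hosts that fell in WT were Snhg18 (-1.05) and Zbed3 (-0.86), whose Snord123 and Snora47 gave -0.10 each.

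**Figure D5:**
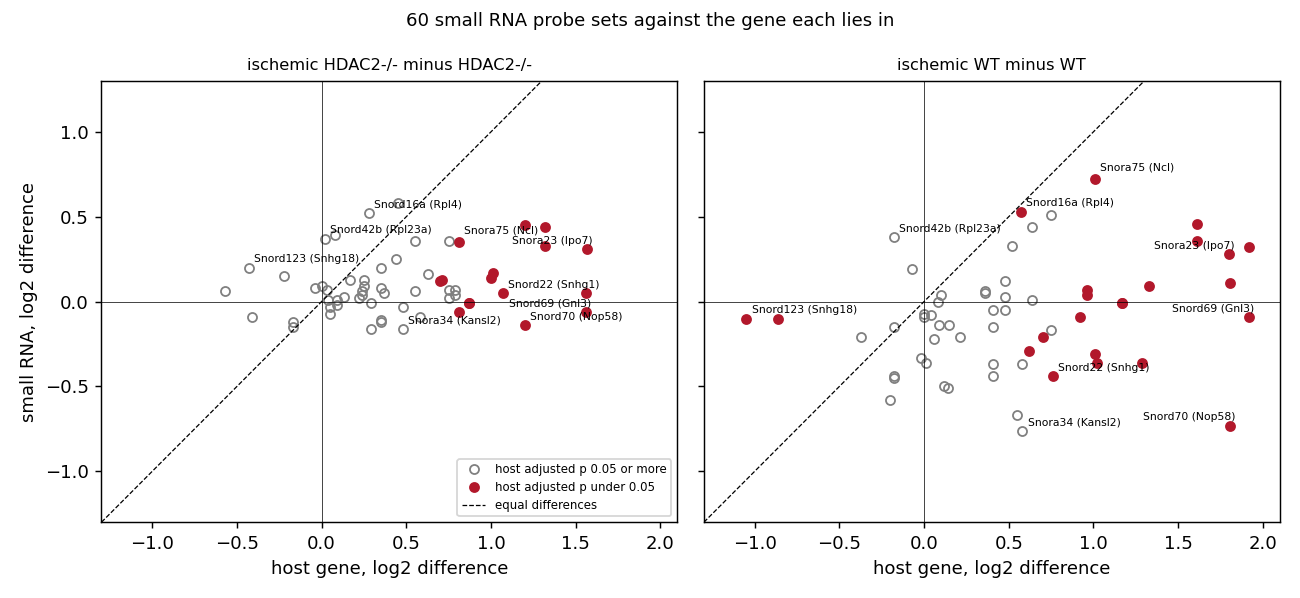
Log2 difference after ischemia of 60 small RNA probe sets (vertical axis) against that of the gene each lies in (horizontal axis), for HDAC2-/- (left) and WT kidneys (right); filled points mark hosts with an adjusted p under 0.05 and the dashed line equal differences. All filled points with a host above 0 lie below the dashed line: 16 probe sets in 11 hosts in HDAC2-/- and 21 in 16 hosts in WT.

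Within groups the small RNAs followed their hosts loosely. The median r of a small RNA with its own host was 0.35 over the 60, and 11 had r above 0.8, among them Snord49b and Snord49a with 2410006H16Rik (0.970 and 0.967) and Snora73a with Snhg3 (0.949). Whether the probe set of such a host also holds probes on the small RNA was not tested. Snora34 ran against its host Kansl2 (r = -0.916) and Scarna6 against Atg16l1 (r = -0.898). The hosts named here also moved with or against the mean over all the small RNAs within groups. That r was 0.971 for 2410006H16Rik, 0.926 for Snhg3, -0.902 for Kansl2 and -0.85 for Atg16l1. Whether a small RNA and its host were linked beyond this shared array-to-array pattern was not tested.

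Start sites of host genes are shown since many hosts are known for pyrimidine-rich starts. Of 9 hosts read for this, 3 held a run and are all shown, and of the 6 without one (Ncl, Nop58, Nop56, Rps3a1, Wdr43 and Kansl2) only Nop58 is shown, as an example. Each window has 30 bases before the RefSeq start and the first 30 after it (GRCm38.p6), with runs of at least 8 pyrimidines in capitals. A run was counted anywhere in the window. The Rpl4 run lies before the RefSeq start and the Eef2 and Snhg1 runs lie after it, so none of them spans it. The windows are Rpl4 at chr9:64173357-64173416, plus strand, Eef2 at chr10:81176601-81176660, plus strand, Snhg1 at chr19:8723457-8723516, plus strand, and Nop58 at chr1:59684976-59685035, plus strand.
Rpl4: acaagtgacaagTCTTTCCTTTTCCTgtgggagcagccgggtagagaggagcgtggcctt
Eef2: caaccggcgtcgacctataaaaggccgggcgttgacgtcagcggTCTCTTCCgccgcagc
Snhg1: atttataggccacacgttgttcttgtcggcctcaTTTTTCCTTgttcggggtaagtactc
Nop58: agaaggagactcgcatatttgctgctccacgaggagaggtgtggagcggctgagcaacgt
For 37 host genes a start site was given, and 11 held such a run on the sense strand in this window (29.7%), against 25.8% of 27025 genes, a share near that of all genes.

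Of the genes whose products build and process small RNAs a minority passed, to be read against 4.91% of all probe sets called in HDAC2-/- and 13.7% in WT. Of the box C/D core proteins 2 of 3 measured rose in both genotypes, Nop56 and Nop58, while Snu13 gave 0.29 in HDAC2-/- and 0.17 in WT, and of the box H/ACA core proteins 0 of 4 were called in either. Of 10 assembly factors 0 changed in HDAC2-/- and 3 in WT: Nufip1 (0.82) and Znhit6 (0.82), both box C/D assembly factors, rose and Pih1d1 (-0.74) fell. Of 10 Cajal body and SMN complex genes 0 changed in HDAC2-/-, and in WT Tgs1 (0.73), which modifies the cap of small RNAs, and Ddx20 (0.53) rose and Wrap53 (-0.72) and Gemin7 (-0.40) fell. Of 23 genes of small nuclear RNA transcription and end processing 2 changed in HDAC2-/-, Ell (1.16) and Ints9 (-0.66), and 6 in WT, of which Ell (0.86), Snapc1 (0.79), Ice1 (0.78) and Ints13 (0.59) rose and Ints9 (-0.63) and Snapc2 (-0.61) fell. Of 14 trimming and exosome genes 0 changed in HDAC2-/- and 2 in WT, Dis3 (0.82) and Exosc5 (-0.75), and of 14 Sm and U particle genes 0 changed in HDAC2-/- and Snrnp200 (0.70) rose in WT. Of 15 noncoding hosts Snhg5 (1.19 and 1.41), Snhg1 and Snhg15 (0.76 and 0.81) rose in HDAC2-/- and in WT, and Snhg18 and Snhg11 (-0.81) fell in WT. No gene of these lists passed in the test of the genotype difference in response.

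With the mean over the 85 on each array as a covariate, an alternative chosen after the data were seen, 13 of 85 passed after ischemia in WT kidneys, against 19.4% of all probe sets in that fit, and 0 in HDAC2-/-, against 8.59%. The 8 that were higher (8.55% of all) were Snora75 (0.98), Snord53 (0.59), Snord16a (0.58), Snord118 (0.56), Snord43 (0.55), Snord73a (0.48), Snord55 (0.45) and Snora23 (0.44), and the 5 that were lower (10.9% of all) were Snora34 (-0.63), Snord13 (-0.58), Scarna6 (-0.50), Snord61 (-0.46) and Scarna8 (-0.39). The covariate is itself the mean of these probe sets, so a higher relative level of some entails a lower one of others. The count fell to 3 without ischemic WT 2 (13.6% of all probe sets in that fit), 4 without WT 1 (13.4%), 5 without WT 2 (13.6%), 7 without ischemic WT 1 (15.6%) and 8 without WT 3 (15.9%).

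Facts of the series bear on these results as follows. Array medians lay between 5.62 and 5.76, and arrays of 1 group correlated at 0.983 to 0.994. The Hdac2 probe set was 8.12, 7.95 and 8.32 in ischemic HDAC2-/-, 7.93, 8.17 and 7.94 in ischemic WT, 7.83, 7.68 and 8.45 in HDAC2-/- and 7.90, 7.85 and 8.01 in WT, so it did not separate the genotypes, and whether its probes cover the deleted exons is not given in the sources used here. Genotypes are therefore named as labelled. The mean of 5 leukocyte markers was 6.86 to 7.15 in ischemic HDAC2-/-, 6.94 to 7.57 in ischemic WT, 6.52 to 6.78 in HDAC2-/- and 6.62 to 6.94 in WT, and 2 of the 5, Cd68 and Itgam, rose after ischemia in both genotypes; their part in the host gene changes was not tested. Each array held 1 kidney sample. The p values set a difference against the spread between these samples, moderated by the empirical Bayes step over all probe sets.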

How the data were processed

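RNA of 12 kidneys, 3 per group, was isolated with RNeasy kits, turned into sense-strand cDNA and hybridised to 1 array each. The deposited values are log2 signals that the authors made with robust multiarray average normalization in Transcriptome Analysis Console 4.0, and they were used without further scaling. Probe sets were named from the platform annotation, and those with 1 symbol matching the rule were kept. Groups came from the sample labels. All 12 arrays entered 1 fit with a mean per group in limma 3.58.1 under R 4.3.3, with empirical Bayes variances and Benjamini-Hochberg adjustment over 34472 probe sets. The procedure was tested on simulated data. Within-group deviations were correlated with no test. The genes, lists and comparisons were chosen with earlier results of these data known, including that these RNAs spread between arrays. The text names each Scarna and Rnu gene, in Snord and Snora the called genes or the 3 with the smallest p in a comparison, the 5 with the largest spread, families and hosts of those genes, called genes of each list and the 10 most alike and 5 most opposite genes; some further members and hosts were named after their values were seen. Alternatives covered normalization, scaling, filters, thresholds, variance models, array weights, a replicate block and each array left out. No depth exists for arrays, so the number of arrays limits the precision. Figures were drawn with matplotlib.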

Additional observations from a re-analysis of the deposited data

How the results depend on the processing

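Under the planned changes of scaling, normalization and filter, no mean difference over the members moved by as much as 0.401, the pooled within-group SD of their mean. Each mean difference was itself smaller than this SD, so the rule could not show a change of sign. Counts of called members moved in a few settings: counting probe sets with several symbols gave 3 after ischemia in WT and 1 in HDAC2-/-, array weights gave 1 in WT (Snord43) and 4 in HDAC2-/- (Snora78, Snord16a, Snord43 and Snord53), and the covariate of the members' mean, chosen after the data were seen, gave 13 in WT. With 1 array left out the count was 0 to 2 of 85 in WT (Snord43 and Snord16a without WT 3, Snord118 without ischemic WT 2, Snord70 without ischemic WT 3) and 0 to 1 in HDAC2-/- (Snord16a without HDAC2-/- 3), and 0 in the other comparisons. For scale, 13.7% of all probe sets passed in WT and 4.91% in HDAC2-/- with all arrays. Leaving out 1 array, the mean difference over the members was 0.03 to 0.48 for ischemic HDAC2-/- against ischemic WT, -0.14 to 0.28 for HDAC2-/- against WT, -0.30 to 0.16 after ischemia in WT, -0.08 to 0.33 after ischemia in HDAC2-/- and -0.06 to 0.44 for the difference in response. The 16 and 11 host genes that rose were 17 in HDAC2-/- with array weights, and stayed within 8 to 15 in HDAC2-/- and 11 to 16 in WT with any array left out. The within-group spread of the members was 0.396 to 0.488 with 1 array left out. After each probe set's group means were removed, the deviations on same-numbered arrays of different groups correlated at -0.373 to 0.444 over all probe sets. Replicate 3 had the highest mean over the members in ischemic WT (8.92), HDAC2-/- (9.22) and WT (9.05). In ischemic HDAC2-/- it was replicate 2 (9.23). Whether replicate numbers mark a batch was not tested. With the replicate block 0 members were called in every comparison, and calls over all probe sets were 4906 against 4730 in WT and 1754 against 1691 in HDAC2-/-. The cause of these shifts was not tested.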
